A study of Rattus norvegicus with 24 samples.

Results

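The miRNAs described here are the leukocyte and NF-kB feedback miRNAs of the rat lung: rno-miR-142-3p, rno-miR-142-5p, rno-miR-150-5p, rno-miR-155-5p, rno-miR-223-3p, rno-miR-146a-5p and rno-miR-146b-5p. They were chosen by name, with earlier results of these data known, and matched to the miRNA names in the array scanner files. Of the 7, 6 matched a probe name and all 6 passed the filter on dim probes, among 719 rat miRNAs on the array and 283 that were tested. rno-miR-155-5p was not analysed here.

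The samples were lungs of Fischer-344 rats of both sexes, 7 to 8 weeks old, which inhaled hexanal, a volatile aldehyde of indoor air, or filtered clean air for 4 h per day on 5 days per week over 5 weeks. Of the 4 groups, control breathed filtered clean air and the others hexanal at 600, 1000 or 1500 ppm, and each group of 6 was made up of 3 rats of either sex. The sample titles give these doses in ppm while the treatment text gives the same numbers in mg/m3, so ppm serves here only as the name of a dose. Total RNA of each lung, 100 ng, was labelled with Cy3 and hybridised to its own single-colour Agilent miRNA array, so that each value is from 1 rat and covers every cell type of the lung.

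miRNAs are short RNAs that lower the output of messenger RNAs carrying a match to their seed, the bases near the 5′ end of the miRNA. miR-142 is made in nearly all cells of blood origin, miR-150 is abundant in mature B, T and natural killer cells, and miR-223 is typical of neutrophils and other myeloid cells. miR-146a and miR-146b are switched on by NF-kB after Toll-like receptor or cytokine signals and act against the adaptors TRAF6 and IRAK1, which closes a feedback loop, while miR-155 is induced by the same signals in macrophages and lymphocytes. In lung tissue these miRNAs come with resident and blood-borne leukocytes, and miR-146a and miR-146b also with epithelium. In bulk RNA, fewer cells of a type and less of the miRNA per cell cannot be told apart.

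The mature sequences of 5 of the 6 measured members are shown because they set which members can be read as a pair. They are from RefSeq (rat assembly GRCr8), written 5′ to 3′ with the seed, bases 2 to 8, in capitals.
rno-miR-142-5p: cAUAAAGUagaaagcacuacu
rno-miR-142-3p: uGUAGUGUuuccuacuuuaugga
rno-miR-223-3p: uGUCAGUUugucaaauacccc
rno-miR-146a-5p: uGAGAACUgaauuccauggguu
rno-miR-146b-5p: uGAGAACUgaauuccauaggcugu

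Both miR-142 miRNAs are arms of 1 hairpin, Mir142, on the plus strand of chromosome 10 (chr10:73055119-73055139 for the 5p arm and chr10:73055155-73055177 for the 3p arm), and they have different seeds. miR-146a-5p, from the minus strand of chromosome 10 (chr10:28350053-28350074), and miR-146b-5p, from the plus strand of chromosome 1 (chr1:255144874-255144897), share their seed. Over the first 22 bases, counted from 1 at the 5′ end, they are the same at 20 and differ by G18A and U21C, with the base of miR-146a-5p given first, and miR-146b-5p is longer by 2 bases. miR-223-3p lies on the plus strand of chromosome X (chrX:65151450-65151470). Among 693 mature rat miRNAs in the same table, the 5 sequences hold 4 distinct seeds, and no miRNA outside the members had one of these seeds.

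Levels are given as log2 of the scaled intensity of the array, the brightness of a probe once all arrays had been brought to a common 75th percentile. Each of the 6 measured members was read by 2 probes of 10 spots, both above background on 24 of 24 arrays and with 0 saturated spot values. Across arrays, 221 to 306 miRNAs were above background and the 75th percentile ran from 662 to 1226 scanner units before scaling. The arrays lay on 3 glass slides that followed sex and dose. Slide 1 carried 8 males (3 control, 3 at 600 ppm, 2 at 1000 ppm), slide 3 carried 8 females (2 at 600 ppm, 3 at 1000 ppm, 3 at 1500 ppm), and slide 2 carried 4 females (3 control, 1 at 600 ppm) and 4 males (1 at 1000 ppm, 3 at 1500 ppm). Within neither sex did control and 1500 ppm lungs share a slide, so dose effects are given both without a slide term and with slide as a block. As a check of the tissue, the epithelial miR-200 family (5 of 5) and the endothelial miR-126 pair (2 of 2) were all measured. So were the ciliated cell miRNAs (3 of 3). Of 3 listed miRNAs of other organs, rno-miR-124-3p of nerve tissue was above background on 0 arrays. The others, rno-miR-122-5p and rno-miR-375-3p, were above background on 21 and 24 arrays, and 4 of 7 striated muscle miRNAs were tested.

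None of the 6 measured members passed the test at any dose. With limma and Benjamini-Hochberg adjustment over 283 miRNAs, 0 of 6 were called at 600 ppm, 0 of 6 at 1000 ppm and 0 of 6 at 1500 ppm, beside 0% of all miRNAs tested at each dose. At an unadjusted p below 0.05 the counts over all miRNAs were 5, 17 and 26, and 0 of the 6 members were among them. The 18 differences ran from -0.25 to 0.17 on the log2 scale with standard errors of 0.10 to 0.16, and their 95% intervals reached from 0.669-fold to 1.42-fold of control. The median difference of the members was -0.13 at 600 ppm, -0.06 at 1000 ppm and -0.10 at 1500 ppm, beside 0.02, -0.01 and 0.00 over all 283 miRNAs. In all 18 comparisons the exposed rats overlapped the control rats. The share of all miRNAs that did so is not given here, so the overlap is not particular to the members.

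**Figure D1:**
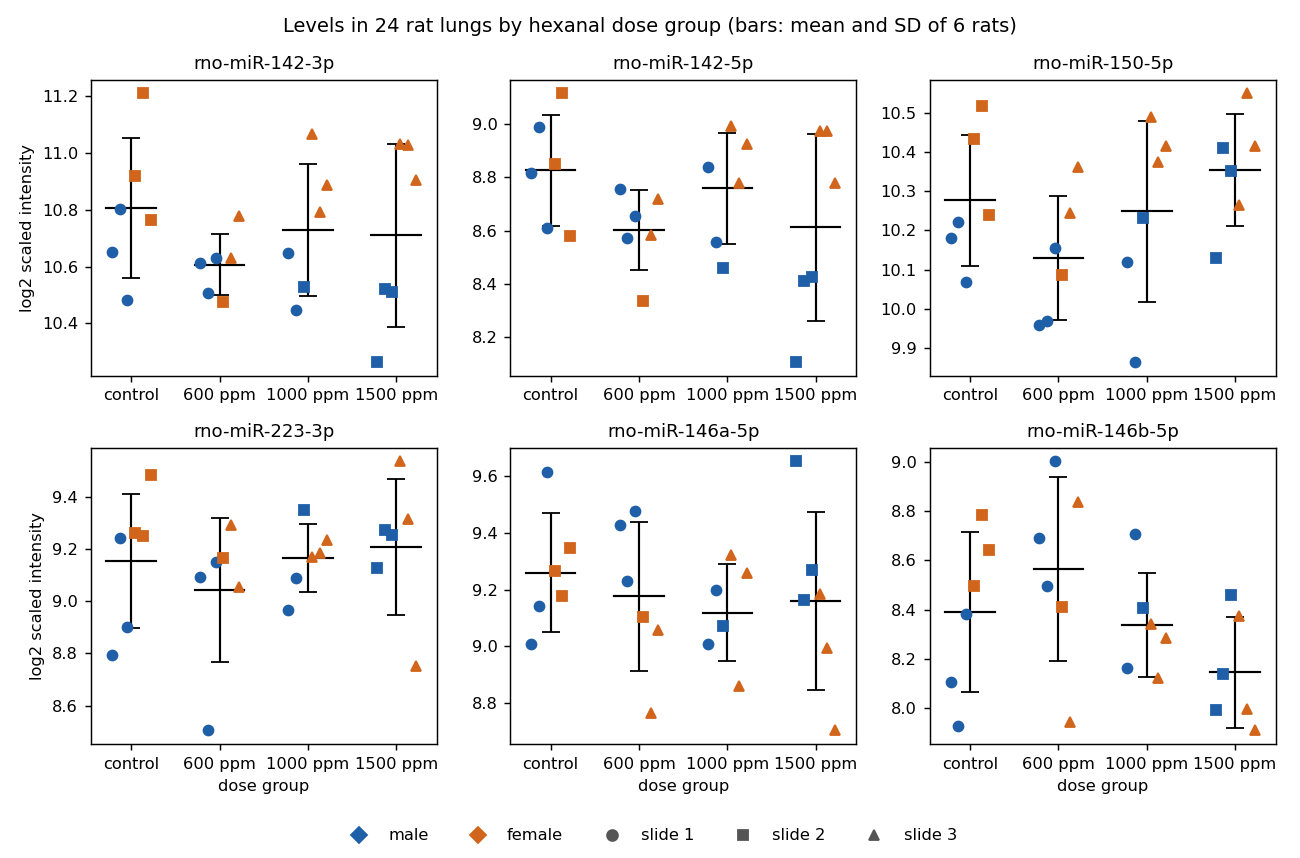
Log2 scaled intensity (vertical axis) of the 6 measured members in 24 rat lungs, by dose group (horizontal axis). Points are single rats coloured by sex and shaped by array slide, and black bars give the mean and SD of 6 rats. All 6 rats at 600 ppm lay below the control mean for both arms of miR-142, and every exposed group overlapped control for every member.

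rno-miR-142-3p, a miRNA of blood-derived cells, ran in control lungs from 10.48 to 11.21 with a median of 10.79. The 600 ppm lungs spanned 10.48 to 10.78 (median 10.62), the 1000 ppm lungs 10.45 to 11.07 (10.72) and the 1500 ppm lungs 10.26 to 11.03 (10.71). All 6 rats at 600 ppm were below the control mean and 1 was below the lowest control rat, while 2 rats at 1000 ppm and 3 at 1500 ppm were above the mean. The log2 difference from control was -0.20 ± 0.13 (SE) at 600 ppm, -0.08 ± 0.13 at 1000 ppm and -0.10 ± 0.13 at 1500 ppm (limma adjusted p of 0.996, 0.991 and 0.751). With slide as a block it was -0.31 ± 0.10, -0.26 ± 0.11 and -0.29 ± 0.11 (limma adjusted p of 0.285, 0.511 and 0.325).

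rno-miR-142-5p, from the other arm of the hairpin, ran in control lungs from 8.58 to 9.12 with a median of 8.83. At 600 ppm it spanned 8.33 to 8.76 (median 8.62), at 1000 ppm 8.46 to 8.99 (8.81) and at 1500 ppm 8.10 to 8.98 (8.60). All 6 rats at 600 ppm were again below the control mean, and 2, 2 and 3 rats of the exposed groups were below the lowest control rat. The log2 difference was -0.22 ± 0.14 (SE) at 600 ppm, -0.07 ± 0.14 at 1000 ppm and -0.22 ± 0.14 at 1500 ppm (limma adjusted p of 0.996, 0.991 and 0.50). With slide as a block it was -0.36 ± 0.11, -0.24 ± 0.11 and -0.33 ± 0.11, a level of 0.779, 0.845 and 0.797 of control (limma adjusted p of 0.285, 0.511 and 0.325). The value at 600 ppm was the farthest from 0, relative to its error, among the dose differences of the members in that fit, and it did not pass the threshold.

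rno-miR-150-5p, a lymphocyte miRNA, ran in control lungs from 10.07 to 10.52 with a median of 10.23. At 600 ppm it spanned 9.96 to 10.36 (median 10.12), at 1000 ppm 9.86 to 10.49 (10.30) and at 1500 ppm 10.13 to 10.55 (10.38). At 600 ppm 5 of 6 rats were below the control mean, and at 1500 ppm 4 of 6 were above it. The log2 difference was -0.15 ± 0.10 (SE), -0.03 ± 0.10 and 0.08 ± 0.10 at the 3 doses in rising order (limma adjusted p of 0.996, 0.991 and 0.748). Slide as a block gave -0.20 ± 0.07, -0.14 ± 0.07 and -0.10 ± 0.07 (limma adjusted p of 0.307, 0.578 and 0.670), so that the sign at 1500 ppm turned with the fit. The 2 probes of this miRNA followed each other loosely over the 24 arrays (r of 0.213, a description) and gave -0.02 and 0.17 at 1500 ppm.

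rno-miR-223-3p, a miRNA of neutrophils and other myeloid cells, ran in control lungs from 8.79 to 9.48 with a median of 9.25. At 600 ppm it spanned 8.51 to 9.29 (median 9.12), at 1000 ppm 8.97 to 9.35 (9.18) and at 1500 ppm 8.75 to 9.54 (9.26). Rats of all 3 exposed groups lay on both sides of the control mean. The log2 difference was -0.11 ± 0.13 (SE), 0.01 ± 0.13 and 0.05 ± 0.13 (limma adjusted p of 0.996, 0.991 and 0.872). The value at 600 ppm rested on male 7, the lowest of the 24 rats, and was -0.0050 without it. Slide as a block gave -0.09 ± 0.12, -0.01 ± 0.13 and -0.07 ± 0.13, with the sign turned at 1000 and 1500 ppm.

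rno-miR-146a-5p, the NF-kB feedback miRNA, ran in control lungs from 9.01 to 9.61 with a median of 9.22. At 600 ppm it spanned 8.76 to 9.48 (median 9.17), at 1000 ppm 8.86 to 9.32 (9.13) and at 1500 ppm 8.70 to 9.65 (9.17). The exposed rats lay on both sides of the control mean at each dose, with 4, 5 and 4 of 6 below it. The log2 difference was -0.08 ± 0.14 (SE), -0.14 ± 0.14 and -0.10 ± 0.14 (limma adjusted p of 0.996, 0.966 and 0.751). Slide as a block gave -0.01 ± 0.13, -0.02 ± 0.14 and 0.03 ± 0.14, so the sign at 1500 ppm turned with the fit. Its 2 probes had an r of 0.594 over the arrays and gave -0.21 and 0.01 at 1500 ppm.

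rno-miR-146b-5p, its relative with the same seed, ran in control lungs from 7.93 to 8.78 with a median of 8.44. At 600 ppm it spanned 7.94 to 9.0 (median 8.59), at 1000 ppm 8.12 to 8.71 (8.31) and at 1500 ppm 7.91 to 8.46 (8.07). At 600 ppm 5 of 6 rats were above the control mean and 2 above the highest control rat, and at 1500 ppm 5 of 6 were below the mean. The log2 difference was 0.17 ± 0.16 (SE), -0.05 ± 0.16 and -0.25 ± 0.16 (limma adjusted p of 0.996, 0.991 and 0.511). Slide as a block gave 0.25 ± 0.17, 0.04 ± 0.17 and -0.19 ± 0.18, with the sign turned at 1000 ppm. Its SD over the 24 rats, 0.31, was at percentile 77.4 of the 283 miRNAs, whose median SD was 0.18.

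**Figure D2:**
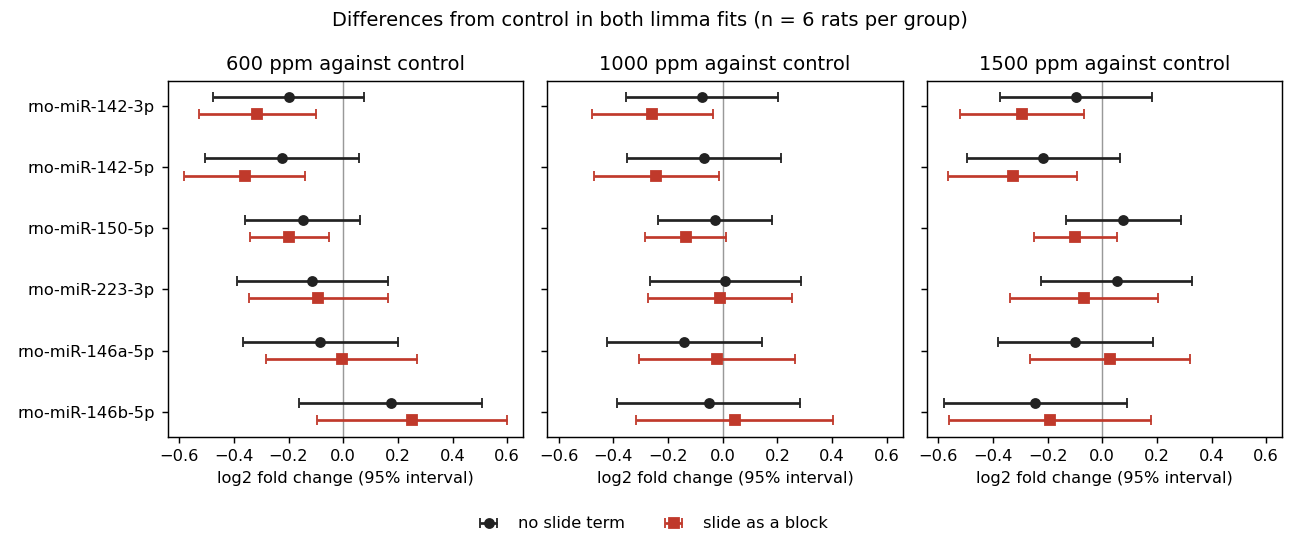
Log2 fold change against control (horizontal axis, with 95% interval) of the 6 measured members at the 3 doses, from the limma fit without a slide term (black circles) and with slide as a block (red squares), n = 6 rats per group. The intervals without a slide term all cross 0. With the block, those of rno-miR-142-3p and rno-miR-142-5p lie below 0 at all 3 doses and that of rno-miR-150-5p at 600 ppm, before adjustment over 283 miRNAs. Neither fit held a term for sex, which was not spread evenly over dose within the slides.

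With slide as a block, 0% of the 283 miRNAs were called at 600 ppm, at 1000 ppm and at 1500 ppm, and 0 of the 6 members. At an unadjusted p below 0.05 the block gave 23, 24 and 24 miRNAs, with 3, 2 and 2 of the members among them: both arms of miR-142 at each dose, and rno-miR-150-5p at 600 ppm. The median difference of the members was then -0.14, -0.08 and -0.14, beside 0.02, -0.01 and -0.02 over all miRNAs. The dose fit with the block held no term for sex. On slide 2 the controls were female and the rats at 1000 and 1500 ppm male. At those doses the block differences therefore cannot be told apart from sex on that slide. Exposed and control rats of 1 sex shared slide 1 (males) and slide 2 (females), the latter with 1 exposed rat. On slide 1 the 3 males at 600 ppm differed from the 3 control males by -0.06 ± 0.09 (SE) for rno-miR-142-3p and by -0.14 ± 0.11 for rno-miR-142-5p, and the 2 males at 1000 ppm by -0.10 ± 0.12 and -0.11 ± 0.15. On slide 2 female 26 at 600 ppm was at 10.48 for rno-miR-142-3p, below the 3 control females (10.77 to 11.21), and at 8.33 for rno-miR-142-5p, also below them (8.58 to 9.12). This 1 rat was below the same 3 controls for all 6 measured members, and this comparison was not tested. For rno-miR-146b-5p the slide 1 males at 600 ppm were higher by 0.59 ± 0.17 (limma adjusted p = 0.712), and for rno-miR-146a-5p the difference of 0.12 ± 0.17 had the opposite sign to that over all rats.

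The test of any dose and the linear trend asked whether a member followed exposure at all. For any dose, 0 of 6 members and 0% of all miRNAs were called without a slide term, with the smallest limma adjusted p of the members at 0.711, and 0 of 6 and 0% with the block, where the smallest was 0.549. At an unadjusted p below 0.05 these tests gave 15 and 24 of all miRNAs, with 0 and 2 of the members. The slopes per 1000 ppm ran from -0.18 ± 0.11 (SE) for rno-miR-146b-5p to 0.06 ± 0.07 for rno-miR-150-5p, with 0 of 6 members and 0% of all miRNAs called for the trend (29 of all and 0 members at an unadjusted p below 0.05). With the block the slopes of rno-miR-142-3p and rno-miR-142-5p were -0.18 ± 0.08 and -0.19 ± 0.08 (limma adjusted p of 0.437 for both), and again 0 members and 0% of all miRNAs were called. At an unadjusted p below 0.05 the block gave 27 of all miRNAs for the trend, with 2 of the members, these arms of miR-142.

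Males had less rno-miR-142-3p and rno-miR-150-5p than females when slide was left out of the fit. Both sexes overlapped: rno-miR-142-3p ran from 10.48 to 11.21 in 12 females (median 10.90) and from 10.26 to 10.80 in 12 males (10.53). rno-miR-150-5p ran from 10.09 to 10.55 in females (median 10.39) and from 9.86 to 10.41 in males (10.14). Male minus female, with dose group in the fit, was -0.32 ± 0.07 (SE), 0.799 of the female level, for rno-miR-142-3p (limma adjusted p = 0.00134) and -0.23 ± 0.05 for rno-miR-150-5p (limma adjusted p = 0.00304). These 2 of 6 stood beside 43.8% of all 283 miRNAs called between the sexes, so a call here was common on these arrays. Both calls also ended without scaling (-0.12 and -0.019, limma adjusted p of 0.512 and 0.927) and with normexp background correction (-0.29 and -0.21, limma adjusted p of 0.0818 and 0.0916). rno-miR-142-5p had -0.20 ± 0.09, rno-miR-223-3p -0.16 ± 0.09, rno-miR-146a-5p 0.19 ± 0.09 and rno-miR-146b-5p 0.03 ± 0.12 (limma adjusted p of 0.0669 to 0.863).

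Neither call held once slide entered the model. The block left 3.53% of all miRNAs called between the sexes and 0 of 6 members, with -0.38 ± 0.16 (SE) for rno-miR-142-3p (limma adjusted p = 0.201) and 0.04 ± 0.12 for rno-miR-150-5p (limma adjusted p = 0.850). Slide 2 was the only slide with both sexes, 4 rats of each. There rno-miR-142-3p ran from 10.48 to 11.21 in females and from 10.26 to 10.53 in males, a difference of -0.39 ± 0.15 (limma adjusted p = 0.194), and the sexes overlapped. rno-miR-150-5p differed by -0.04 ± 0.11 on that slide, where 7.07% of all miRNAs and 0 of 6 members were called. The size of the difference in rno-miR-142-3p was therefore about the same on slide 2 and over all rats, whereas that in rno-miR-150-5p was not. The 4 males of slide 2 were at 1000 or 1500 ppm and the 4 females were controls or at 600 ppm. No dose was shared, so sex and dose cannot be told apart on that slide.

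**Figure D3:**
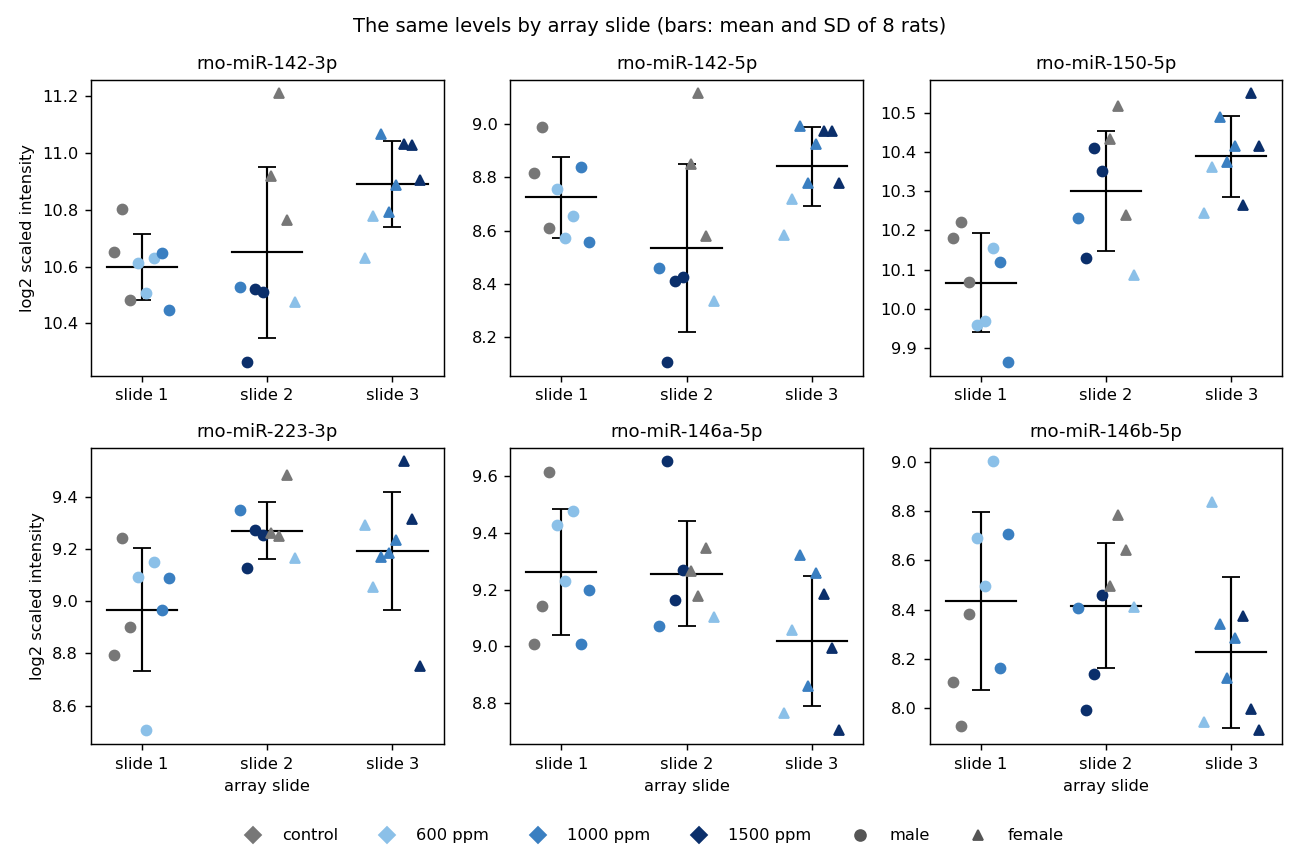
Log2 scaled intensity (vertical axis) of the 6 measured members by array slide (horizontal axis). Points are single rats coloured by dose group and shaped by sex, and black bars give the mean and SD of 8 rats. rno-miR-150-5p had a mean of 10.07 on slide 1, which held males only, and 10.39 on slide 3, which held females only.

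The slides themselves differed in 3 of the 6 members, beside 59.7% of all miRNAs tested, with dose group in the fit. In the order of slides 1, 2 and 3, rno-miR-150-5p was at 10.07 ± 0.13, 10.30 ± 0.15 and 10.39 ± 0.10 (SD, n = 8, limma adjusted p = 0.000340). Its ranges on slide 1 (9.86 to 10.22) and slide 3 (10.24 to 10.55) did not overlap, and the share of all miRNAs with such a gap is not given here. rno-miR-142-3p was at 10.60 ± 0.12, 10.65 ± 0.30 and 10.89 ± 0.15 (limma adjusted p = 0.00225), and rno-miR-142-5p at 8.72 ± 0.15, 8.54 ± 0.32 and 8.84 ± 0.15 (limma adjusted p = 0.00353). rno-miR-223-3p (limma adjusted p = 0.0509), rno-miR-146a-5p (0.130) and rno-miR-146b-5p (0.365) were not called. With sex as a covariate only rno-miR-142-5p was called, and rno-miR-142-3p (limma adjusted p = 0.209) and rno-miR-150-5p (0.118) were not. Slide and sex cannot be told apart on slides 1 and 3. The red blood cell miRNAs moved with the slides too, with 2 of 3 called and a summed scaled intensity of 2088 to 3163 on slide 1, 1057 to 1879 on slide 2 and 1416 to 2679 on slide 3. Over dose groups this sum ran from 1088 to 3163 in control, 1548 to 2983 at 600 ppm, 1803 to 2679 at 1000 ppm and 1057 to 2429 at 1500 ppm, and its part in the results was not tested.

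The interaction of dose and sex asked whether males and females responded unequally to hexanal. Of the 6 members 1 was called, rno-miR-142-5p (F of 4.96, limma adjusted p = 0.0443), beside 25.1% of all miRNAs tested. In females its level was 8.85 ± 0.27 in control and 8.91 ± 0.11 at 1500 ppm, and in males 8.81 ± 0.19 and 8.31 ± 0.18 (SD, n = 3). The 3 males at 1500 ppm (8.10 to 8.43) lay below the 3 control males (8.61 to 8.99), and the females overlapped. How many of all miRNAs separated these males likewise is not given here. The interaction at 1500 ppm was -0.55 ± 0.20 (SE, limma adjusted p = 0.0358). With slide as a block it was -0.00056 ± 0.34, the F was 1.30 (limma adjusted p = 0.863) and 0 of 6 members and 0% of all miRNAs were called; the control and 1500 ppm rats of each sex lay on different slides. The call was also lost in 16 of 24 fits that left out 1 rat, where F ran from 3.57 to 6.71, and it was kept without control 3, 22 or 23, 600 ppm rat 28, 1000 ppm rat 11, 13 or 32, or 1500 ppm rat 38. With quantile normalization rno-miR-142-3p was called in its place (F of 6.16, limma adjusted p = 0.0250), and with the 75th percentile over all probes rno-miR-146b-5p (F of 4.52, limma adjusted p = 0.0475).

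rno-miR-146b-5p had the largest interaction terms of the members in size, with 0.83 ± 0.29, 0.68 ± 0.29 and 0.60 ± 0.29 at the lowest, middle and highest dose (SE, limma adjusted p of 0.389, 0.199 and 0.103). In males it was 8.14 ± 0.23 in control and 8.73 ± 0.26 at 600 ppm, and in females 8.64 ± 0.14 and 8.40 ± 0.45 (SD, n = 3). The 3 males at 600 ppm were above the 3 control males, with 8.50 as the lowest against 8.38 as the highest, and all 6 lay on slide 1. How many of all miRNAs separated these rats in the same way is not given here. The F over the 3 doses was 3.26 (limma adjusted p = 0.111) and did not pass. rno-miR-142-3p had an F of 3.48 (limma adjusted p = 0.0975), and the other 3 members had 0.89 to 2.32.

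The 2 pairs of related members were compared across the 24 rats. The arms of miR-142, whose probes read different sequences of 1 hairpin, rose and fell together: Pearson r was 0.888 and Spearman rho 0.897 (permutation p = 1e-05 for each, the smallest that 100000 draws can give, adjusted over 2 pairs 2e-05). Without the 2 rats farthest from the median of rno-miR-142-3p r was 0.861. Within slides 1, 2 and 3 it was 0.942, 0.991 and 0.951 (n = 8, exact permutation p of 0.000645, 4.96e-05 and 0.000620), and with slide means subtracted 0.97. Each slide thus held its own close line of the arms, as the plot of the pairs shows.

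miR-146a-5p and miR-146b-5p, which share a seed but come from different chromosomes, were less closely tied. Pearson r was 0.443 and Spearman rho 0.477 (permutation p of 0.0295 and 0.0196, which are also the values adjusted over 2 pairs). Without the 2 rats farthest from the median of rno-miR-146a-5p r was 0.570. Within slides r was 0.605, -0.447 and 0.597 (n = 8, exact permutation p of 0.115, 0.268 and 0.112). Spearman rho was 0.595, 0.095 and 0.762 (exact permutation p of 0.132, 0.84 and 0.0368). The relation thus did not hold within each slide, and on slide 2 the 2 measures had different signs. On slide 2 male 16 at 1500 ppm had the highest miR-146a-5p of all rats (9.65) and a miR-146b-5p of 7.99.

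**Figure D4:**
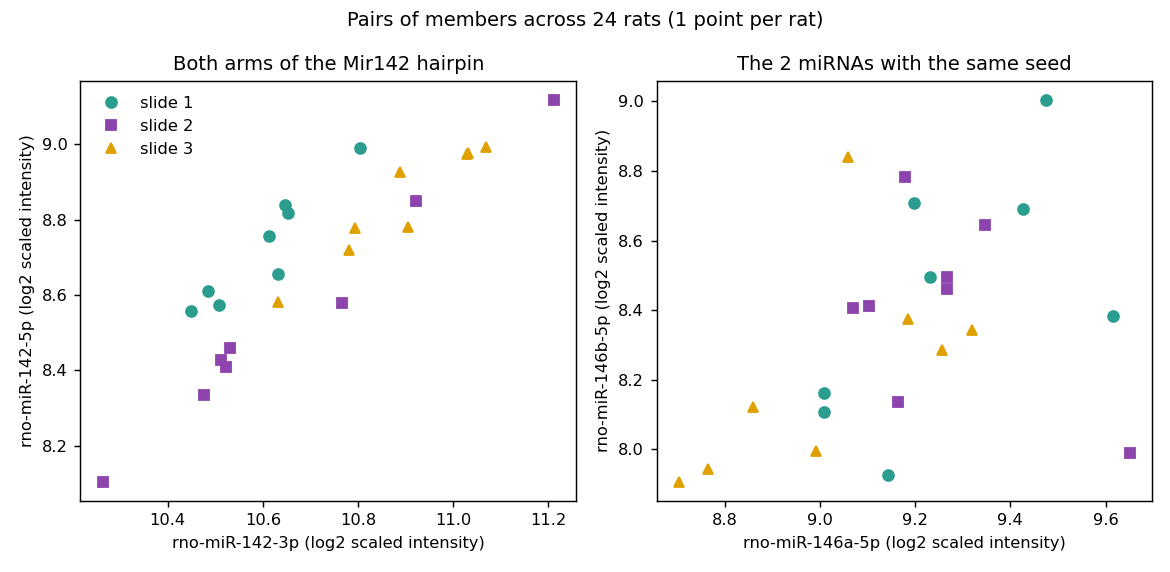
Log2 scaled intensity of the 2 pairs of related members, rno-miR-142-3p against rno-miR-142-5p (left) and rno-miR-146a-5p against rno-miR-146b-5p (right), with 1 point per rat shaped and coloured by array slide. The arms of miR-142 follow 1 line per slide (r of 0.942 to 0.991 within slides). The miR-146 pair is scattered (within slides, Pearson r of -0.447 to 0.605 and Spearman rho of 0.095 to 0.762).

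Among the tested miRNAs outside the members, the pattern over 24 arrays after slide means were subtracted was most like that of rno-miR-142-3p for rno-miR-363-3p (Pearson r of 0.790, a description) and rno-miR-295-5p (0.668). For rno-miR-142-5p they were rno-miR-363-3p (0.744) and rno-miR-6215 (0.631). rno-miR-150-5p was nearest to rno-miR-342-3p (0.663) and rno-miR-1949 (0.619), and rno-miR-223-3p to rno-miR-409a-3p (0.600) and rno-miR-193-5p (0.537). For the NF-kB feedback pair the values were lower for rno-miR-146a-5p, with rno-miR-22-5p (0.465) and rno-miR-152-3p (0.400), than for rno-miR-146b-5p, with rno-miR-6328 (0.623) and rno-miR-3593-3p (0.563).

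Of the other arms of the members' hairpins, only rno-miR-150-3p could be tested. rno-miR-223-5p, rno-miR-146a-3p and rno-miR-146b-3p were above background on 0 arrays, and rno-miR-155-3p was not analysed here. rno-miR-150-3p had mean levels of 4.84, 4.51, 4.56 and 4.70 in control and at the 3 doses. It differed from control by -0.33 ± 0.20 (SE), -0.28 ± 0.20 and -0.14 ± 0.20 without a slide term (limma adjusted p of 0.996, 0.827 and 0.751) and by -0.31 ± 0.15, -0.36 ± 0.15 and -0.42 ± 0.15 with slide as a block (limma adjusted p of 0.588, 0.511 and 0.325). Male minus female was -0.48 ± 0.10 without a slide term (limma adjusted p = 0.00150), the same sign as for rno-miR-150-5p. With the block it was -0.67 ± 0.20 (limma adjusted p = 0.0913), whereas rno-miR-150-5p had 0.04 ± 0.12, the opposite sign. The levels of rno-miR-150-3p were low, with a scaled intensity of 20.6 to 45.6 in females and 17.9 to 25.2 in males and the floor at 11.3.

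The wider set of miRNAs that respond to or damp NF-kB and Toll-like receptor signalling held 13 names, of which 9 were tested. rno-miR-9a-5p, rno-miR-147 and rno-miR-187-3p, which Toll-like receptor ligands induce in myeloid cells, were above background on 0 arrays, and rno-miR-132-3p on 2. At every dose 0 of 9 were called in either fit. At 1500 ppm 8 of 9 had a positive difference, with a median of 0.19 over the list, but with slide as a block 5 of 9 were positive and the median was 0.05. The 2 with the smallest p for any dose were rno-miR-21-5p, often raised in injured lung, and rno-miR-125b-5p. rno-miR-21-5p differed by 0.08 ± 0.07 (SE), 0.05 ± 0.07 and 0.19 ± 0.07 (limma adjusted p of 0.996, 0.991 and 0.325), and by 0.17 ± 0.07 at 1500 ppm with the block (limma adjusted p = 0.400). rno-miR-125b-5p, whose targets include the cytokine TNF, differed by 0.15 ± 0.07, 0.14 ± 0.07 and 0.01 ± 0.07 (limma adjusted p of 0.996, 0.636 and 0.992).

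**Figure D5:**
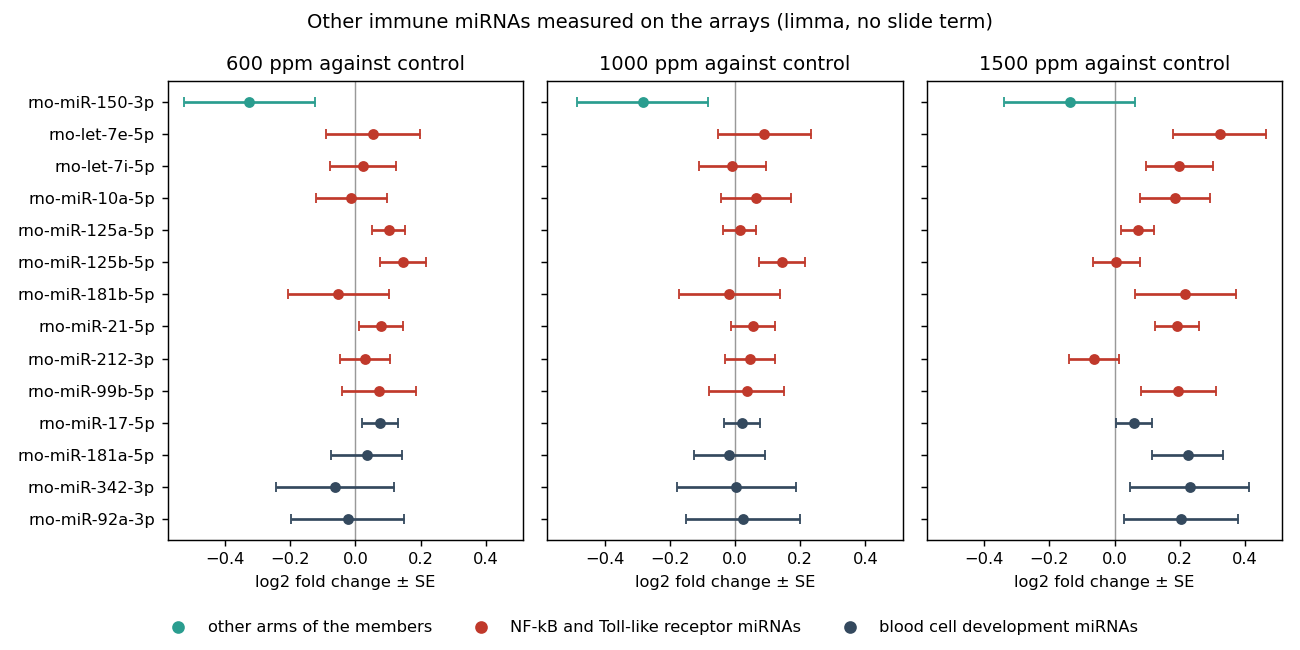
Log2 fold change against control (horizontal axis, ± SE) at the 3 doses of the 14 other immune miRNAs tested: 1 other arm of the members, 9 NF-kB and Toll-like receptor miRNAs and 4 blood cell development miRNAs, from the limma fit without a slide term. No point passed the threshold, and at 1500 ppm 8 of 9 and 4 of 4 of the last 2 lists were positive.

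The blood cell development list, rno-miR-17-5p, rno-miR-92a-3p, rno-miR-181a-5p and rno-miR-342-3p, was tested whole, with 0 of 4 called at any dose in either fit. Its median difference was 0.01, 0.01 and 0.21 without a slide term and 0.01, -0.06 and -0.03 with the block. The 2 with the smallest p for any dose were rno-miR-181a-5p, which acts in the development of T and B cells (0.03 ± 0.11, -0.02 ± 0.11 and 0.22 ± 0.11, SE), and rno-miR-342-3p, abundant in lymphocytes (-0.06 ± 0.18, 0.0045 ± 0.18 and 0.23 ± 0.18). Between males and females 3 of 4 were called without a slide term, rno-miR-342-3p the most (-0.44 ± 0.09, limma adjusted p = 0.00121). This stood beside 43.8% of all 283 miRNAs and 4 of 9 in the NF-kB and Toll-like receptor list. With the block 0 of 4 were called, beside 3.53% of all miRNAs.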

How the data were processed

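The authors deposited a scanner output of Agilent Feature Extraction 11.5.1.1 for every array, beside a series table. Per the file headers, the processed intensity is the Cy3 brightness of a spot after correction for background, with no normalization between arrays. Of the 17256 values in the series table, 7125 exceeded 1 and were identical to the scanner's total gene signal, and 10131 were set to 1. The study available to read describes other kinds of array, so no miRNA procedure was taken from it.

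Control spots and outlier spots were left out. Arrays were scaled by the 75th percentile of the 394 probes found above background on all 24 arrays, to a common value of 865 (geometric mean over arrays). Values under 11.3 were set to that floor (8.59% of kept spots) before log2 was taken. A probe was kept if above background on at least 6 arrays (555 probes of 1730), spots and then probes were averaged, and 283 miRNAs were tested. Near the floor, residual background makes differences smaller than those in RNA, and the number of arrays limits the precision.

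limma 3.58.1 in R 4.3.3 (lmFit, eBayes, two-sided, Benjamini-Hochberg over all 283, threshold 0.05) was fitted to all 24 arrays, with 20 residual degrees of freedom for the dose fit. Slide, read from the files, entered as a fixed block or, in an alternative, as a random one. Other alternatives were the scaling, the filter, the floor, the background correction, the probe, the series table and leaving out each rat. The fits were checked on simulated data. Pairs were tested with 100000 permutations, or exactly for 8 rats, two-sided (Python 3.11.15, numpy 2.4.6). Named were all 7 members, miRNAs of each list past the threshold or the 2 with the smallest p for any dose, and for likeness the 2 with the highest r; list miRNAs under background and those named for a sex difference were chosen after their values were seen. The members and lists were chosen with earlier results of these data known. Sequences are from RefSeq GRCr8, while the array header names rn4, and no coordinates were converted.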

Additional observations from a re-analysis of the deposited data

Results flagged for a closer look

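In the 600 ppm group, male 7 was far below the other rats for rno-miR-223-3p, a neutrophil and myeloid miRNA. Its level was 8.51 on the log2 scale against 9.15 ± 0.09 in the other 5 rats (SD, n = 5), and the gap to the nearest rat was 0.698 of the range of the group, above the 95% critical value for 6 samples. This was 1 of 24 groups of 6 that were looked at, and chance gives about 1 in 20. No explanation was tested.

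For rno-miR-142-5p the interaction of dose and sex was called (F of 4.96, limma adjusted p = 0.0443), beside 25.1% of all miRNAs tested. The 3 males at 1500 ppm lay below the 3 control males, and the females overlapped, with no share of all miRNAs given for such a gap. The call was lost in 16 of 24 fits that left out 1 rat. With slide as a block the F was 1.30 (limma adjusted p = 0.863), and the slide and the comparison within each sex cannot be told apart at 1500 ppm.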

How the results depend on the processing

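No member was called at any dose, for any dose or for the trend under the reported fit or any alternative run. The number of members called between the sexes, 2, became 1 without scaling and with the series table (rno-miR-146a-5p, in place of rno-miR-142-3p and rno-miR-150-5p), and 0 with normexp, the fixed slide block, the random slide block and within slide 2, and it rose to 3 with quantile normalization (rno-miR-146a-5p added, 0.28) and with the brightest probe (rno-miR-142-5p added, -0.21). The number called for the interaction, 1, became 3 without scaling, 2 with the series table, and 0 without the filter on dim probes, with normexp, the total gene signal and either slide block, stayed at 1 but for another member with quantile normalization and the 75th percentile over all probes, and ran from 0 to 2 when each rat was left out. The number called between slides, 3, became 5 without scaling and with the series table, 1 with sex as a covariate, and 4 with quantile normalization (rno-miR-146a-5p added), the 75th percentile over all probes, the strict filter and the brightest probe (rno-miR-223-3p added). With normexp it stayed at 3, with rno-miR-223-3p in place of rno-miR-142-5p (limma adjusted p = 0.217). The r of the miR-146 pair fell from 0.443 to 0.351 with slide means subtracted (permutation p = 0.0934), while rho was 0.477 and 0.453 (permutation p = 0.0271 after subtraction), and without scaling r was 0.665.

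Signs turned in several differences, of which only that of rno-miR-150-5p between the sexes was called in the fit without a slide term. Without scaling, which moved the median of all 283 miRNAs to 0.057 at 1000 ppm, -0.22 at 1500 ppm and 0.14 between the sexes, the turned values were, at 1000 ppm, 0.0068 for rno-miR-142-5p, 0.023 for rno-miR-146b-5p and 0.047 for rno-miR-150-5p; at 1500 ppm, -0.18 for rno-miR-150-5p and -0.21 for rno-miR-223-3p; for the trend of the same miRNAs, -0.070 and -0.083; and between the sexes, 0.0073 for rno-miR-142-5p and 0.046 for rno-miR-223-3p. With the series table (medians -0.27 at 1500 ppm and 0.16 between the sexes) they were, in the same order, 0.0016, 0.016 and 0.028; -0.15 and -0.21; -0.053 and -0.085; and 0.0060 and 0.038. rno-miR-223-3p at 1000 ppm turned to -0.036 with quantile normalization, -0.011 with normexp, -0.022 with the total gene signal, -0.0089 with the fixed and -0.0054 with the random slide block. rno-miR-146b-5p at 1000 ppm turned to 0.044 with the fixed block, 0.030 with the random block and 0.30 within the males of slide 1, where rno-miR-146a-5p at 600 ppm turned to 0.12. At 1500 ppm the fixed and the random block gave 0.029 and 0.0095 for rno-miR-146a-5p (0.0090 with its brighter probe), -0.099 and -0.072 for rno-miR-150-5p and -0.066 and -0.048 for rno-miR-223-3p, and for the trend 0.014 and 0.00096, -0.057 and -0.039, and -0.029 and -0.017. Between the sexes, rno-miR-146b-5p turned to -0.068 with normexp, which moved the median of all miRNAs to -0.27, and to -0.30, -0.13 and -0.33 with the fixed block, the random block and within slide 2, and rno-miR-150-5p, called without a slide term, turned to 0.045 with the fixed block.

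Leaving out single rats kept 0 members called for dose and kept the sex calls of rno-miR-142-3p and rno-miR-150-5p in all 24 fits (2 to 3 members called). Differences whose sign turned then ran from -0.15 to 0.0038 for rno-miR-142-3p, -0.14 to 0.027 for rno-miR-146b-5p, -0.076 to 0.049 for rno-miR-150-5p and -0.063 to 0.075 for rno-miR-223-3p at 1000 ppm, from -0.019 to 0.14 for rno-miR-223-3p at 1500 ppm, from -0.082 to 0.014 for rno-miR-142-3p in the trend and from -0.037 to 0.077 for rno-miR-146b-5p between the sexes. The fits cannot separate slide from sex on slides 1 and 3, nor from dose within a sex at 1500 ppm, and differences within the intervals, which reached 0.669-fold to 1.42-fold of control without a slide term and 0.668-fold to 1.52-fold with the block, were not detectable with 6 arrays per group. No paired analysis was possible because the rats' numbers are not shared between groups.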

Other observations

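Among the 13 other pairs of members, the correlation over 24 rats after slide means were subtracted was highest between miR-142 and miR-150, the miRNAs of blood-derived cells and of lymphocytes: Pearson r was 0.697 for rno-miR-142-3p with rno-miR-150-5p and 0.716 for rno-miR-142-5p with rno-miR-150-5p, given as a description with no test. The neutrophil and myeloid rno-miR-223-3p and the NF-kB feedback miRNAs were not among the pairs over 0.3.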
